A study of Mus musculus with 35 samples.

Results

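The acute-phase and iron-copper binding genes followed here are 10 genes of the 25655 in each of the authors' tables: Saa1, Saa2, Saa3, Lcn2, Orm1, Orm2, Hp, Cp, A2m and Serpina3n. They were picked by name, and each was found in all 8 deposited comparisons. Messenger RNA was sequenced from retina of wild-type mice (CX3CR1-WT in the series text) in 35 samples of 7 groups. Diabetic retina was taken at 6 weeks (D6, 5 samples), at 8 weeks after 2 weeks of microglial depletion (D8 depleted, 4), at 8 weeks with PBS (D8, 5), at 10 weeks after 2 weeks of depletion and 2 weeks of recovery (D10 repopulated, 5) and at 10 weeks with PBS (D10, 5). Non-diabetic retina was taken after the same 2 weeks of depletion and 2 weeks of recovery (ND repopulated, 5) or without it (ND, 6). The labels name the depleting agent DTx and the series text names PLX-5622, so it is called depletion here. The sources used here give neither the age of the mice nor how diabetes was induced. Nothing in the labels ties samples to separate animals, so p-values measure the spread between samples, which may be technical.

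The liver answers inflammation by secreting acute-phase proteins, and the cytokine interleukin-6 acting through STAT3, together with C/EBP and NF-kB factors, is the textbook switch for their genes. Saa1, Saa2 and Saa3 encode serum amyloid A, a lipoprotein-bound protein; Saa3 is the form made mainly outside the liver in mice. Lcn2 encodes lipocalin-2, which withholds iron from bacteria by binding their siderophores. Orm1 and Orm2 encode orosomucoids, which carry drugs and lipids in plasma. Hp encodes haptoglobin, which captures free hemoglobin, and Cp encodes ceruloplasmin, a copper enzyme that oxidises iron as it leaves cells. A2m encodes alpha-2-macroglobulin, which traps proteases, and Serpina3n encodes a serine protease inhibitor made by reactive astrocytes and Muller glia, the main glia of the retina.

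In the coordinates of the tables, on GRCm39, the 3 serum amyloid genes lie within 42.3 kb of chromosome 7. Saa3 spans 46361422 to 46365124 and Saa1 46389921 to 46392404, both on the minus strand, and Saa2 spans 46401214 to 46403737 on the plus strand. Orm1 (63262797 to 63266400) and Orm2 (63280686 to 63284115) lie within 21.3 kb of chromosome 4, both on the plus strand. The other genes stand alone: Lcn2 on chromosome 2 (32274645 to 32278264, minus), Cp on chromosome 3 (20011218 to 20063309, plus), A2m on chromosome 6 (121612335 to 121656186, plus), Hp on chromosome 8 (110301760 to 110305804, minus) and Serpina3n on chromosome 12 (104372988 to 104380588, plus). The promoters of 6 members are shown, each of which holds a match to a motif of a factor named above. The promoter of Cp, which also holds a match, is not shown. They are RefSeq sequences of GRCm38.p6, from 250 bases before the start of transcription to 50 after it, and capitals mark matches to the motifs named after them.
Saa3: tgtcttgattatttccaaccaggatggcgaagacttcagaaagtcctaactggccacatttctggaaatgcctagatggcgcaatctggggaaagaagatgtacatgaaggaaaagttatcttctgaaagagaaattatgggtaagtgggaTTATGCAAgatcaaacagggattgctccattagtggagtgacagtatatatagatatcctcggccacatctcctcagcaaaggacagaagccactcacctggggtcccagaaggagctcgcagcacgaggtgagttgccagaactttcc
Saa1: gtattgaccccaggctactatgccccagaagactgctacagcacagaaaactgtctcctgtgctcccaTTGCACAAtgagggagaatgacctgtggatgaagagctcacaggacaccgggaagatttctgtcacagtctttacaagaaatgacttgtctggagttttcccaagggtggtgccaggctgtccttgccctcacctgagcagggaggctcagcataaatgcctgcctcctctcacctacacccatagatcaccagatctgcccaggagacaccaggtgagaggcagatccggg
Saa2: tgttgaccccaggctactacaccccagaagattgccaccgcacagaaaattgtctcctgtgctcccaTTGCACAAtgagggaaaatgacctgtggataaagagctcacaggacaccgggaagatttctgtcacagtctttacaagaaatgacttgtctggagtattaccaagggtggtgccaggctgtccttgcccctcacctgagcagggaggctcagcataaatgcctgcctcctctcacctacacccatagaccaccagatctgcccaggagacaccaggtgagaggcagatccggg
Lcn2: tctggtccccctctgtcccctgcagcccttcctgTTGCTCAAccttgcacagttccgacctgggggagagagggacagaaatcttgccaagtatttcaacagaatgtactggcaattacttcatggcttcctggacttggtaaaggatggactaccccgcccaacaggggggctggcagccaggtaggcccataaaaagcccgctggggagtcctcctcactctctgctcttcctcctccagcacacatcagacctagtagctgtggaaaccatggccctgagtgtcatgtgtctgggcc
Orm2: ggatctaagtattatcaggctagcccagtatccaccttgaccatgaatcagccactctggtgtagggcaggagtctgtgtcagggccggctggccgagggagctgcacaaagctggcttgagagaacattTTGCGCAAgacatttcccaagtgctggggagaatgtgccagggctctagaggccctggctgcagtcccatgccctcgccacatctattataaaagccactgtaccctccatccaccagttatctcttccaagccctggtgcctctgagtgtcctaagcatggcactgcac
Serpina3n: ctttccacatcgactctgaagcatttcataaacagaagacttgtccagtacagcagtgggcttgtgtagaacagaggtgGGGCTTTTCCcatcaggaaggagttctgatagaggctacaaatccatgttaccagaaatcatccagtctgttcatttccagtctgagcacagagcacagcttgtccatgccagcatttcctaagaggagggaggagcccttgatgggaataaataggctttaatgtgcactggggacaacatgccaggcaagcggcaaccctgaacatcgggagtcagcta
They lie at chr7:46715627-46715926 (minus strand) for Saa3, chr7:46742931-46743230 (minus) for Saa1, chr7:46751583-46751882 (plus) for Saa2, chr2:32387690-32387989 (minus) for Lcn2, chr4:63362199-63362498 (plus) for Orm2 and chr12:104406458-104406757 (plus) for Serpina3n.

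Short motifs of 3 factors were searched on both strands, and they were chosen after the promoters had been seen. The C/EBP form TTGCNNAA was in the promoters of 6 of the 7 members with a sequence, against 10.8% of 32851 promoters. It lay 99 bases before the start of Saa3, 182 before Saa1, 183 before Saa2, 216 before Lcn2 and 120 before Orm2, and at one of the 2 start sites listed for Cp. The NF-kB form, GGG followed by any 3 letters and TTCC, was in Serpina3n alone, as GGGCTTTTCC at 171 bases before its start, against 5.56% of promoters. The STAT form TTCNNNGAA was in 0 of the 7, against 8.3% of promoters. A match is a run of letters in this window and no measure of binding. The promoters of Saa1 and Saa2 were identical at 95.3% of 301 aligned positions, so their matches are not independent.

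These near copies could also split reads between genes. In the longest coding transcripts of GENCODE M21, Orm1 and Orm2 were identical at 91% of positions and 6.95% of the 100-base windows of Orm1 occurred in Orm2. Only exact matches were counted, so how uncertain this leaves the values of the orosomucoid pair is not known. Saa1 and Saa2 were identical at 87.3% of positions but shared 0 of 510 windows of Saa1 letter for letter. How reads with more than one match were counted is not stated.

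In diabetic retina all 10 genes had a higher group mean than in non-diabetic retina, in each of the 5 diabetic groups. The level given here is the group mean of the authors' deposited tables, in a unit that is not stated, so levels are compared between groups and not between genes. The tables hold no value per sample, and each prints only the larger of its 2 group means. Non-diabetic levels are therefore given as at most the larger mean of the table of ND repopulated against ND. The members' log2 fold changes there lay between -1.57 for Hp and 0.93 for Saa2, and none was called. Where they were near 0, which of both groups that mean belongs to is uncertain. Errors are standard errors implied by the deposited p-values, and a gene is called at a deposited adjusted p under 0.05. Group means carry no spread, and in whole retina fewer cells of a type and less RNA per cell cannot be told apart.

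**Figure D1:**
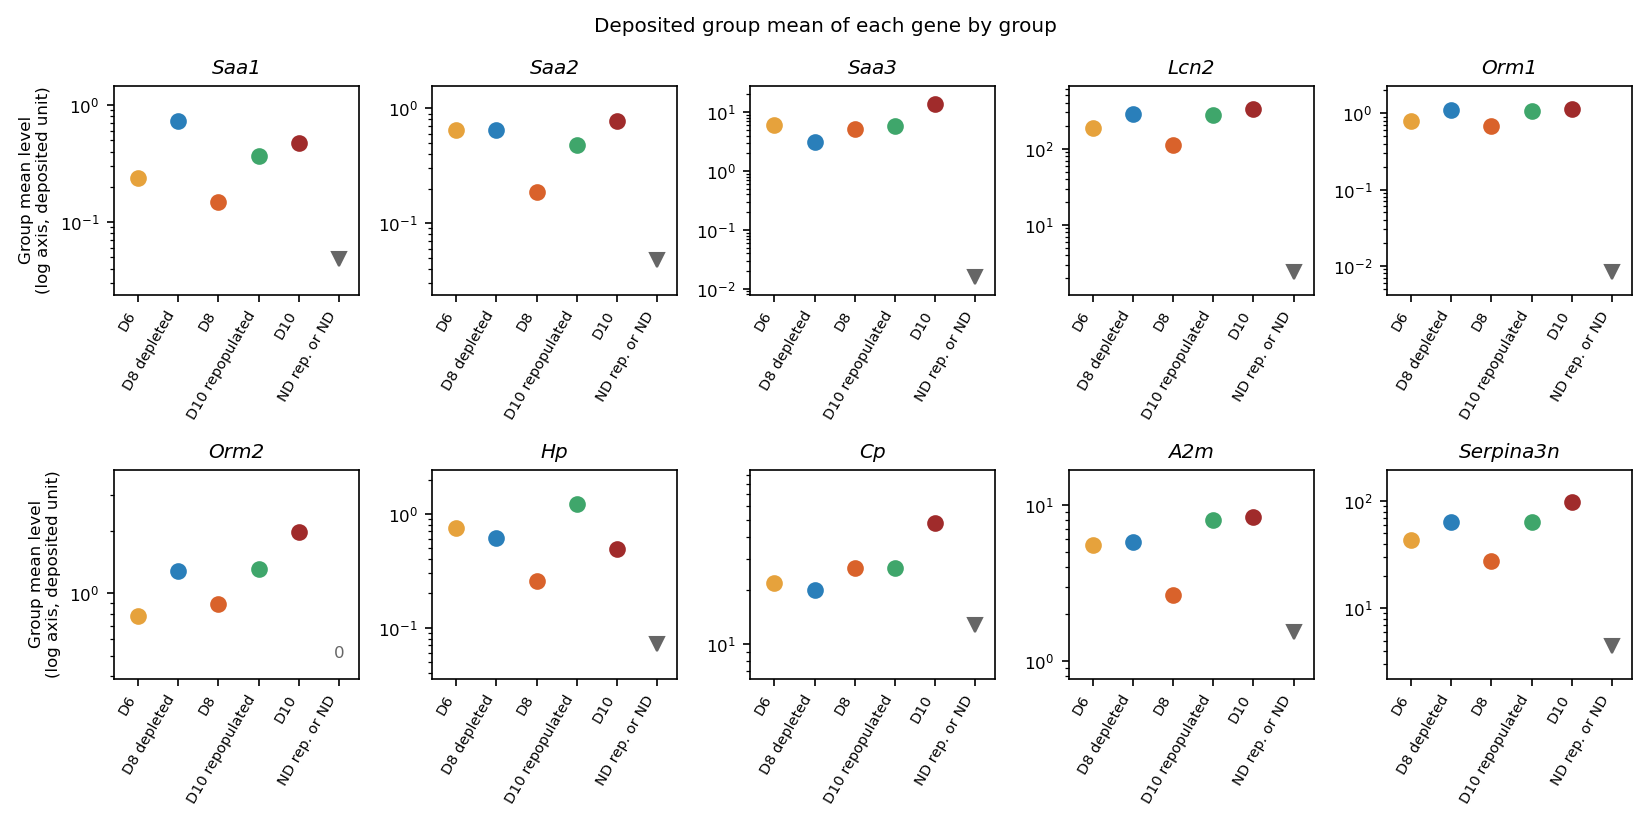
Group mean level of each gene (vertical log axis, deposited unit) in D6, D8 depleted, D8, D10 repopulated and D10 (circles), with the larger of the ND repopulated and ND means as a grey triangle. The means carry no error bars because the tables give no spread; Lcn2 lies between 113 (D8) and 333 (D10) in diabetic retina, against at most 2.43 in non-diabetic retina, and Orm2 is listed at 0 there.

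Lcn2, the siderophore-binding lipocalin, had the following levels in the authors' deposited tables: 185 in D6, 285 in D8 depleted, 113 in D8, 279 in D10 repopulated and 333 in D10, against at most 2.43 in ND repopulated and ND. All 5 diabetic groups were far above the non-diabetic ones, with D8 the lowest of them. The log2 fold change against ND in the authors' deposited tables was 6.30 in D6 (standard error 0.58, adjusted p = 5.426e-23), 6.82 in D8 depleted (0.62, 9.23e-25), 5.51 in D8 (0.58, 2.984e-17), 6.84 in D10 repopulated (0.58, 1.574e-27) and 7.08 in D10 (0.58, 1.024e-29).

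Of the serum amyloid genes, Saa3 was called in all 5 diabetic groups, Saa2 in 4 and Saa1 in 3. Saa3 had levels of 5.94 in D6, 3.08 in D8 depleted, 5.09 in D8, 5.86 in D10 repopulated and 13.9 in D10, against at most 0.0159 in ND repopulated and ND, in the authors' deposited tables. Its log2 fold change against ND ran between 7.45 in D8 depleted (standard error 0.89, adjusted p = 2.652e-14) and 9.66 in D10 (0.85, 2.064e-26) in the authors' deposited tables. Saa3 was lowest in the depleted group, unlike Saa1 and Saa2, which were lowest in D8. Saa2 had levels of 0.649 in D6, 0.645 in D8 depleted, 0.186 in D8, 0.483 in D10 repopulated and 0.782 in D10, against at most 0.0477 in ND repopulated and ND. Saa1 had 0.238, 0.729, 0.147, 0.369 and 0.476 in the same 5 diabetic groups, against at most 0.0479 in ND repopulated and ND. Saa2 was called against ND in D6, D8 depleted, D10 repopulated and D10 but not in D8, where the authors' deposited table gave log2 2.73 (standard error 1.00, adjusted p = 0.139). Saa1 was called in D8 depleted (log2 3.71, standard error 0.97), D10 repopulated (2.77, 0.94) and D10 (3.12, 0.93) in the authors' deposited tables. It did not pass in D6 (2.19, adjusted p = 0.0786) or in D8 (1.48, adjusted p = 0.646) in the authors' deposited tables.

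Both orosomucoid genes were called in all 5 diabetic groups. Orm1 had levels of 0.785 in D6, 1.09 in D8 depleted, 0.690 in D8, 1.07 in D10 repopulated and 1.14 in D10, against at most 0.0084 in ND repopulated and ND. Its log2 fold change against ND lay between 5.91 in D8 (standard error 1.38) and 6.64 in D10 (1.38) in the authors' deposited tables, and it was called in all 5 diabetic groups. Orm2 had 0.777 in D6, 1.29 in D8 depleted, 0.889 in D8, 1.31 in D10 repopulated and 1.97 in D10, and was listed at 0 in both ND repopulated and ND. No fold is therefore given for Orm2 against ND; the authors' deposited adjusted p was between 0.000188 in D10 and 0.00523 in D8.

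The hemoglobin and iron handling pair behaved differently from one another. Hp had levels of 0.749 in D6, 0.615 in D8 depleted, 0.260 in D8, 1.21 in D10 repopulated and 0.494 in D10, against at most 0.0717 in ND repopulated and ND. Its highest group was D10 repopulated, and its log2 fold change against ND was 3.99 there (standard error 0.63, adjusted p = 2.346e-08) and 1.76 in D8 (0.65, adjusted p = 0.143), which did not pass, in the authors' deposited tables. Cp was already measurable in non-diabetic retina, at no more than 12.7, and had 22.2 in D6, 20.1 in D8 depleted, 26.7 in D8, 26.6 in D10 repopulated and 48.0 in D10. Apart from A2m in D8, no other member with a fold against ND had a smaller one in any diabetic group, and the errors of Cp were the smallest of the list. The log2 fold change of Cp against ND was 0.84 in D6, 1.05 in D8, 1.07 in D10 repopulated and 1.91 in D10 (standard error 0.26 each), and 0.62 in D8 depleted (0.27, adjusted p = 0.0705), where it did not pass, in the authors' deposited tables.

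Both protease inhibitors were lowest in D8 among the diabetic groups. A2m had levels of 5.54 in D6, 5.81 in D8 depleted, 2.66 in D8, 8.02 in D10 repopulated and 8.35 in D10, against at most 1.55 in ND repopulated and ND. In D8 its log2 fold change against ND was 0.76 (standard error 0.29, adjusted p = 0.168) and did not pass, while in D6 (1.88, 0.29), D8 depleted (1.86, 0.30), D10 repopulated (2.36, 0.29) and D10 (2.42, 0.29) it did, in the authors' deposited tables. Serpina3n had levels of 43.7 in D6, 63.3 in D8 depleted, 27.8 in D8, 64.0 in D10 repopulated and 97.7 in D10, against at most 4.42 in ND repopulated and ND. It was called in every diabetic group, with a log2 fold change against ND between 2.63 in D8 (standard error 0.51) and 4.45 in D10 (0.51) in the authors' deposited tables.

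**Figure D2:**
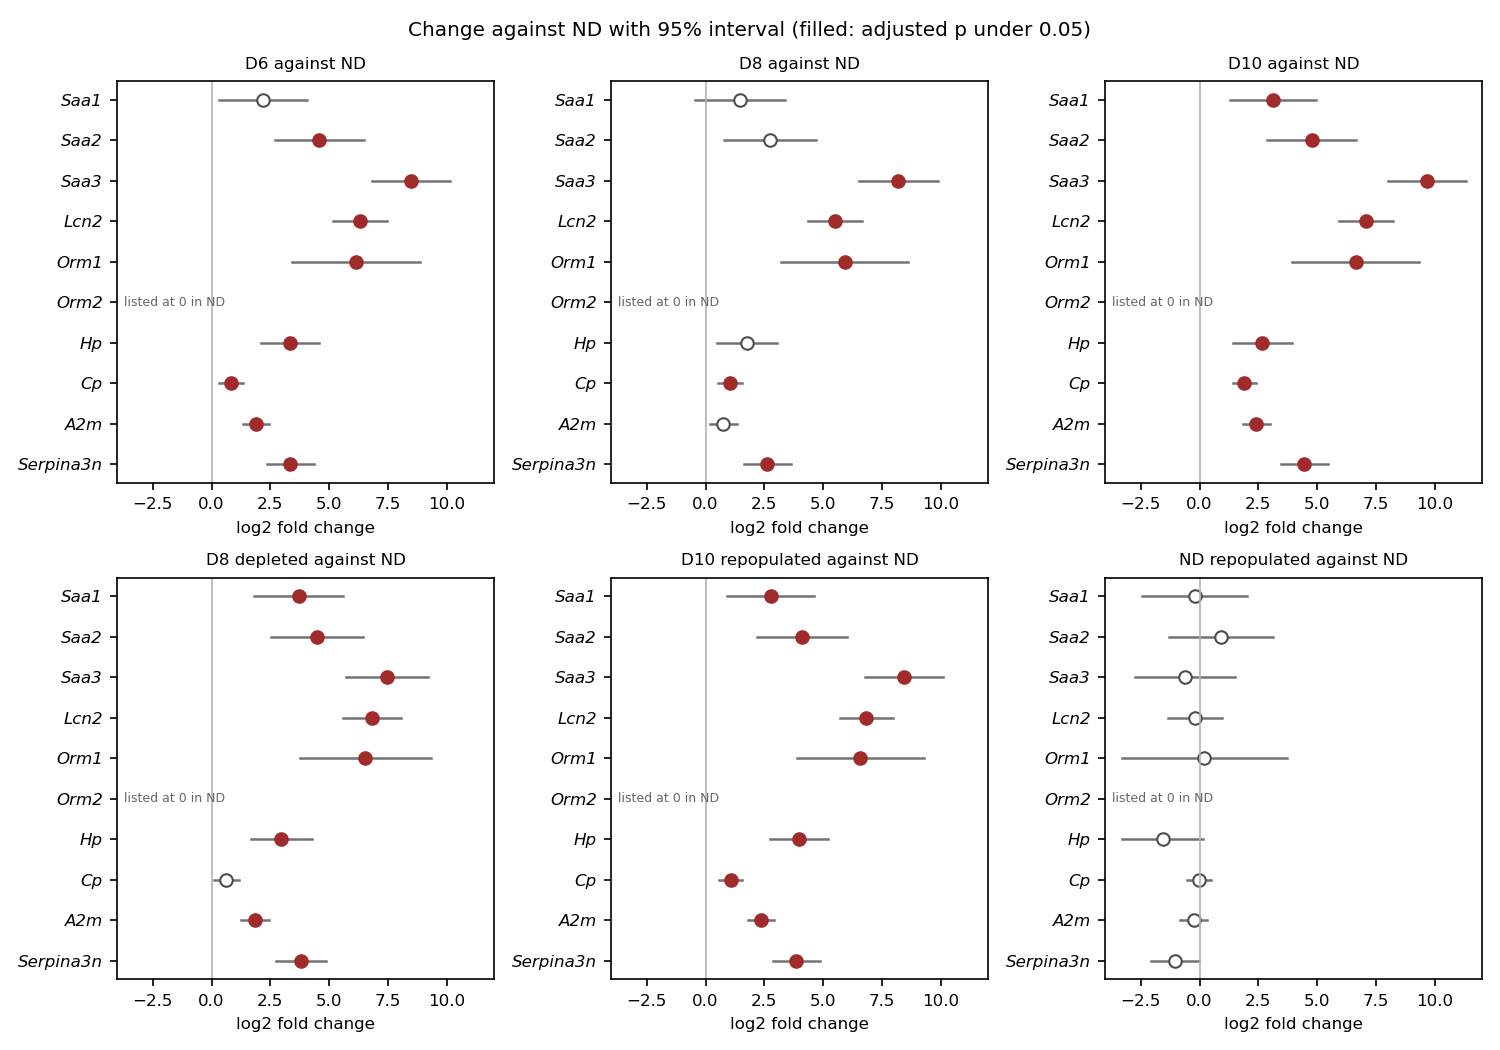
Log2 fold change of each gene against ND in 6 deposited comparisons (horizontal axis) with the 95% interval from the implied standard error; filled points had an adjusted p under 0.05. Every diabetic group lies to the right of 0 for the 9 genes drawn, between 0.62 for Cp in D8 depleted and 9.66 for Saa3 in D10, and no gene is filled in ND repopulated; Orm2 is left out because it is listed at 0 in ND.

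Counted together, 9 of the 10 genes were called higher than ND in D6, where 14.1% of all genes tested were. In D8 depleted 9 of 10 were called higher (15.5% of all genes), in D8 6 of 10 (2.33%), in D10 repopulated 10 of 10 (7.49%) and in D10 10 of 10 (5.59%). None was called lower. The median log2 fold change of the 9 genes other than Orm2 was 3.35, 3.79, 2.63, 3.99 and 4.45 in D6, D8 depleted, D8, D10 repopulated and D10, while over all genes tested it was between 0.00 and 0.04. The 5 comparisons share the ND samples. PBS is named for D8 and D10 alone, and the numbers in their sample titles form a run of their own. D8 and D10 share PBS and that run with each other. In D8 or D10 against ND or D6, diabetes or its length, PBS and that run cannot be told apart. The same holds for depletion in D8 depleted against D8 and for repopulation in D10 repopulated against D10.

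Among the diabetic groups D10 held the highest level of 8 of the 10 genes and D8 the lowest of 7. The exceptions at the top were Saa1, highest in D8 depleted, and Hp, highest in D10 repopulated; those at the bottom were Orm2, lowest in D6, and Saa3 and Cp, lowest in D8 depleted. The highest level was between 1.65 times the lowest for Orm1 and 4.95 times for Saa1. Neighbours in these orders were compared through the difference of their log2 fold changes, by a two-sided normal test in which errors are overstated because both tables share ND. From this test 0 of 10 genes were called between D10 and D8 (0% of all genes, 219 of which had an unadjusted p under 0.05), 0 between D8 and D6 (0.021%) and 0 between D10 and D6 (0.0105%).

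A2m had the smallest p of the members between D10 and D8, at log2 1.66 (standard error 0.41, unadjusted p = 4.17e-05, adjusted p = 0.793 by the normal test on the authors' deposited values). Taking off an estimate of the shared ND variance, 3 of 10 genes were called higher in D10 than in D8 (0.363% of all genes were called in either direction): A2m (adjusted p = 9.1e-08), Serpina3n (log2 1.82, adjusted p = 0.00529) and Cp (log2 0.86, adjusted p = 0.0351), by the normal test on the authors' deposited values. By the same estimate from the authors' deposited values, A2m (log2 -1.12, adjusted p = 0.000274) and Hp (log2 -1.59, adjusted p = 0.0358) were lower in D8 than in D6 (6.17% of all genes), and Cp was higher in D10 than in D6 (log2 1.07, adjusted p = 0.000242; 5.08% of all genes). The ND variance comes from tables that may have been fitted with different dispersions, so these calls are approximate.

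Within diabetic retina A2m was higher in D8 depleted than in D8, and the other members did not pass the test. Of these groups only D8 had PBS and the separate run of sample numbers, so depletion cannot be told apart from them. Levels of A2m were 5.81 in D8 depleted and 2.66 in D8, a log2 fold change of 1.10 (standard error 0.26, adjusted p = 0.00122) in the authors' deposited table. It was the only member called, with 5.85% of all genes called higher in that table, and it was not called when the contrast was taken as the difference of the tables against ND, whose errors are larger. Of the 10 genes 8 had a log2 fold change above 0, with a median of 1.13 against 0.00 over all genes, and 6 had an unadjusted p under 0.05, as did 4273 of all 16982 genes tested. Saa1 (2.22, 95% interval 0.45 to 3.99, adjusted p = 0.0918), Saa2 (1.73, 0.31 to 3.16, 0.104), Lcn2 (1.30, 0.05 to 2.56, 0.179), Hp (1.21, 0.05 to 2.37, 0.177) and Serpina3n (1.16, 0.17 to 2.14, 0.12) did not pass in the authors' deposited table. These intervals are not adjusted for the number of genes tested. Saa3 (log2 -0.75, interval -2.22 to 0.72) and Cp (-0.44, interval -1.01 to 0.14) had values below 0 in the same deposited table and did not pass.

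The depleted group differed from D8 in other cells as well. Of all genes tested 5.85% were called higher in D8 depleted against D8, and the share called lower was not taken. All 10 microglial markers fell in D8 depleted against D8, with Cx3cr1, the fractalkine receptor gene, at log2 -6.98 and the purinergic receptor gene P2ry12 at -1.97 in the authors' deposited table. Beside them 4 of 6 markers of conjunctiva and cornea rose, with the keratin genes Krt5 at 2.51 and Krt12 at 2.47, and 5 of 8 tested lens markers fell, with Cryaa at -2.93 and Cryba1 at -3.27, in the authors' deposited table. Of 11 tested neutrophil markers 2 rose and 1 fell, with the calprotectin genes S100a8 at 1.43 (not called) and S100a9 at 2.04 (called) in that deposited table. For the neutrophil list the larger of both group means was summed over markers, so a sum can mix both groups. It was 23.6 in D8 depleted against D8, with 1 of 12 markers at 0 in both groups. Against ND it was 10.1 in D6, 23.6 in D8 depleted, 7.06 in D8, 18.3 in D10 repopulated and 14.4 in D10. It was 19.3 in D10 repopulated against D10 and 3.04 in ND repopulated against ND. Lcn2 is also a granule gene of neutrophils and is made by surface epithelium; what part these cells have in the values of the depleted group was not tested. Blood cell markers were called higher in 4 of 5 tested cases, with Hba-a1 at 2.23, and 4 of 9 Muller glia markers lower (1 higher), with Rlbp1 at -0.30 and Glul at -0.13 (neither called), in the authors' deposited table; their part was not tested either.

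**Figure D3:**
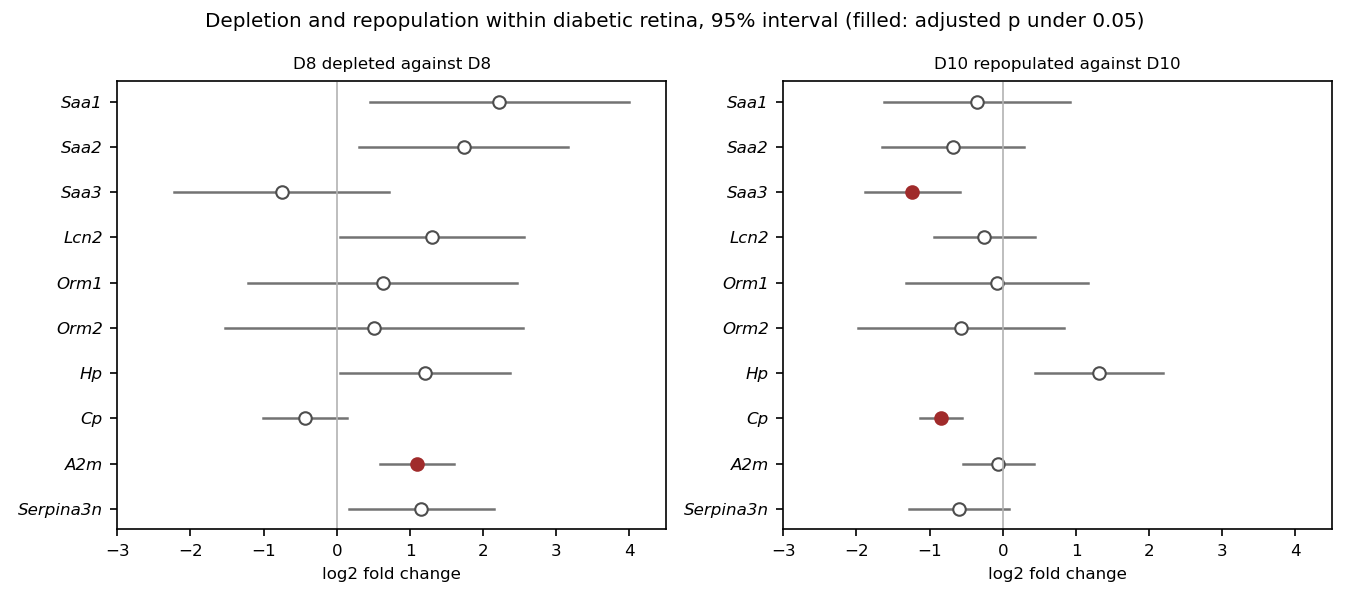
Log2 fold change with 95% interval of each gene in D8 depleted against D8 (left) and D10 repopulated against D10 (right); filled points had an adjusted p under 0.05. A2m is filled on the left at 1.10, and Saa3 and Cp are filled on the right at -1.24 and -0.85.

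Cp and Saa3 were lower in D10 repopulated than in D10, which had never been depleted. Of these groups only D10 had PBS and the separate run of sample numbers, so repopulation cannot be told apart from them. Cp had levels of 26.6 in D10 repopulated and 48.0 in D10, a log2 fold change of -0.85 (standard error 0.15, adjusted p = 2.59e-05) in the authors' deposited table. Saa3 had 5.86 in D10 repopulated and 13.9 in D10, a log2 fold change of -1.24 (0.33, adjusted p = 0.0455) in the authors' deposited table. These were 2 of 10 members, where 0.267% of all genes were called lower. Saa3 was not called at a threshold of 0.01, Cp not with a floor of log2 1, and neither as the difference of the tables against ND. Both were called higher than ND in D10 repopulated. Of the 10 genes 9 had a value below 0, with a median of -0.46 against 0.00 over all genes. Hp was the exception, with 1.21 in D10 repopulated and 0.494 in D10 (log2 1.31, interval 0.44 to 2.19, unadjusted p = 0.00334, adjusted p = 0.228), and did not pass in the authors' deposited table. Lcn2 (-0.25, interval -0.94 to 0.44), A2m (-0.06, -0.54 to 0.42) and Serpina3n (-0.60, -1.29 to 0.09) did not pass either in that deposited table.

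Markers of other cells also differed in this comparison. Of all genes tested 0.267% were called lower in D10 repopulated against D10. The share called higher was not taken, so the counts of markers called higher cannot be read against it. Of 10 microglial markers 4 were called lower in D10 repopulated than in D10, with Cx3cr1 at log2 -1.96 in the authors' deposited table, and 4 of 6 tested blood cell markers were called higher, with the hemoglobin genes Hba-a1 at 3.81 and Hba-a2 at 3.78. Hemoglobin is the ligand of haptoglobin. Against ND, Hba-a1 was lower in D10 (log2 -3.21) and not called in D10 repopulated (0.60) in the authors' deposited tables, and the part of blood left in the tissue in the value of Hp was not tested. Of 7 pigment epithelium markers 2 were called higher and 1 lower in D10 repopulated against D10, with Rpe65 at log2 1.81 and Best1 at -0.13 (not called), and 1 of 7 tested liver markers was called higher, in the authors' deposited table.

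In non-diabetic retina depletion and recovery called no member. In ND repopulated against ND 0 of 10 genes passed, and 24 genes in all did (0.156%), while 382 genes had an unadjusted p under 0.05. Serpina3n was the only member under that unadjusted threshold, at log2 -1.04 (standard error 0.51, unadjusted p = 0.0432, adjusted p = 1) in the authors' deposited table. Precise values were had for Cp (log2 -0.01, interval -0.51 to 0.49) and A2m (-0.25, interval -0.82 to 0.32) in that deposited table. Orm1 (standard error 1.78), Saa1 (1.13), Saa2 (1.13) and Saa3 (1.08) were measured too poorly there to set a bound.

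Differences between these effects were tested directly. The effects within diabetic retina include any of PBS and of the run of sample numbers. The effect of repopulation in diabetic retina (D10 repopulated against D10) minus that in non-diabetic retina (ND repopulated against ND), which share no samples, called 0 of 10 members (0.153% of all genes; 675 had an unadjusted p under 0.05). By the normal test on the authors' deposited values the difference was log2 2.88 for Hp (standard error 0.98, unadjusted p = 0.00334, adjusted p = 0.56) and -0.84 for Cp (0.30, 0.00464, 0.646). The effect of repopulation at 10 weeks minus that of depletion at 8 weeks, again with no shared samples, also called 0 of 10 (0.601% of all genes; 1941 had an unadjusted p under 0.05). Here 5 members had an unadjusted p under 0.05, all with a negative difference: A2m at -1.16 (standard error 0.36, adjusted p = 0.088), Serpina3n at -1.76 (0.61, 0.172), Saa2 at -2.42 (0.88, 0.202), Saa1 at -2.58 (1.11, 0.342) and Lcn2 at -1.55 (0.73, 0.397), by the same test on the authors' deposited values. A negative difference means a lower log2 fold change in D10 repopulated against D10 than in D8 depleted against D8. It does not mean a lower level in D10 repopulated than in D8 depleted.

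Diabetic and non-diabetic retina were also compared with both repopulated. Between D10 repopulated and ND repopulated 5 of 10 genes were called higher (2.02% of all genes): Saa3 (log2 9.06, standard error 1.38), Lcn2 (7.03, 0.83), Hp (5.56, 1.08), Serpina3n (4.89, 0.72) and A2m (2.61, 0.41). With the estimated ND variance taken off all 10 were called (6.07% of all genes), among them Cp at log2 1.08 (adjusted p = 6.27e-05, and 0.0907 with the variances added, by the normal test on the authors' deposited values). Between D10 repopulated and D8 depleted 0 of 10 were called (0.894% of all genes, 2414 of which had an unadjusted p under 0.05), and 0 members had an unadjusted p under 0.05. The difference for Lcn2 was log2 0.02 with a 95% interval of -1.65 to 1.69.

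Among the cytokines that switch on acute-phase genes, Il6, Tnf and Clcf1 were higher in every diabetic group than in ND. Of 10 listed cytokines 7 were called higher than ND in D6 (14.1% of all genes), 3 in D8 depleted (15.5%), 6 in D8 (2.33%), 6 in D10 repopulated (7.49%) and 6 in D10 (5.59%). Il6, the main inducer, was higher by log2 8.02, 6.02, 6.88, 9.22 and 8.23 in these groups in the authors' deposited tables, and Tnf by 6.32, 4.43, 5.60, 6.70 and 6.96. These folds rest on low levels, with standard errors of 1.46 for Il6 and 1.26 for Tnf in D10. Il6 had 0.234 in D8 depleted to 2.14 in D10 repopulated, against at most 0.00185 in ND repopulated and ND. Tnf had 0.118 in D8 depleted to 0.680 in D10, against at most 0.0506 in ND repopulated and ND. In ND repopulated against ND, Tnf was at log2 3.29 (unadjusted p = 0.0124 in the authors' deposited table) and was not called. Clcf1 was higher than ND by log2 0.98 in D8 (level 3.32) to 1.40 in D8 depleted (4.51). Lif, a cytokine of the same receptor family, was the only one called in D8 depleted against D8, with levels of 0.364 and 4.57 and a log2 fold change of -3.66 (adjusted p = 0.00124) in the authors' deposited table. Il6 (-0.86), Tnf (-1.16), Il1a (-1.69), Il1b (-1.63), Osm (-1.73), Il22 (0.78), Clcf1 (0.41), Il11 (0.19) and Cntf (0.15) did not pass there. The median log2 of the list was -1.01.

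**Figure D4:**
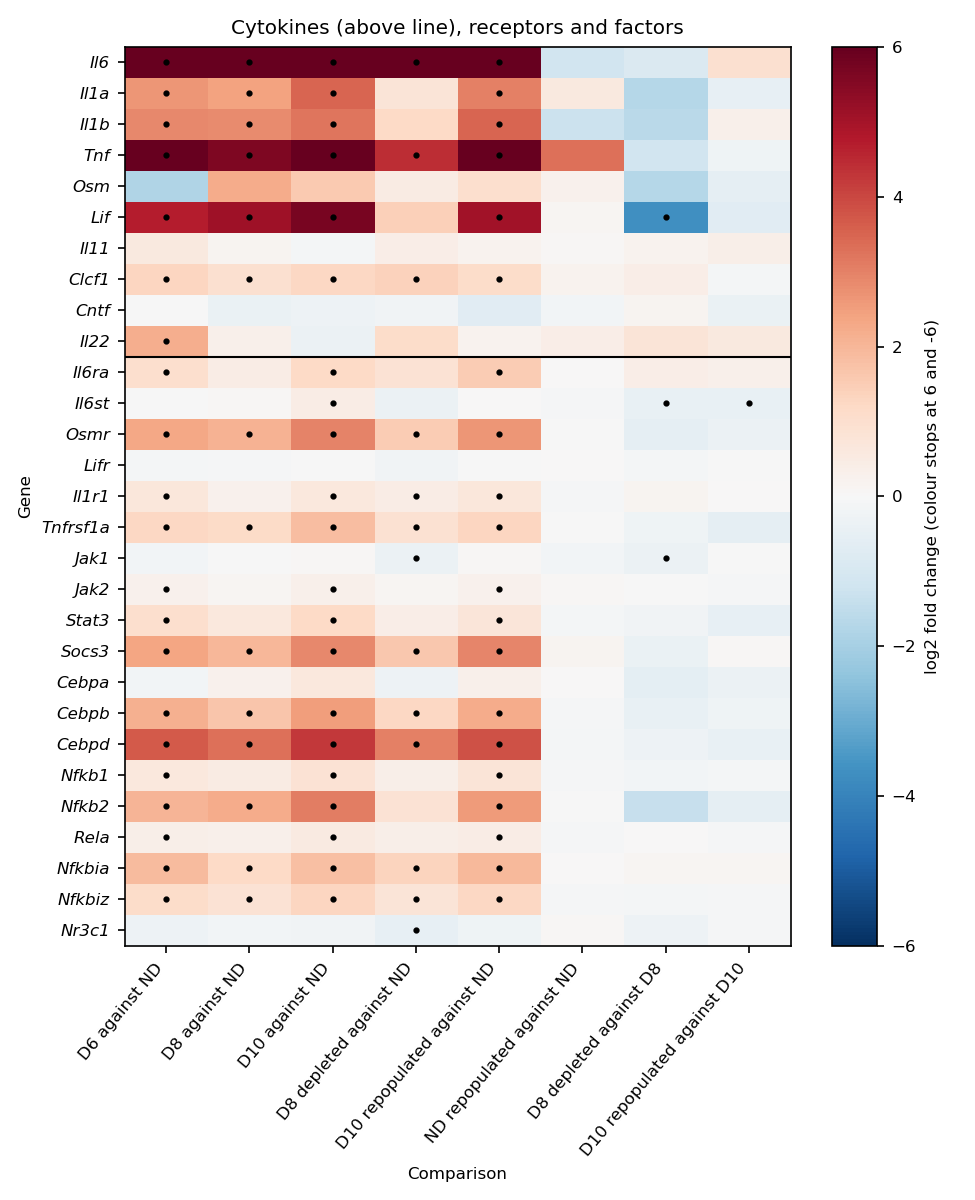
Log2 fold change (colour) of 10 cytokines, above the line, and 19 receptors, kinases and transcription factors in the 8 comparisons; dots mark an adjusted p under 0.05. Il6 and Cebpd carry a dot in all 5 comparisons of diabetic groups with ND, and Lif, Il6st and Jak1 carry one in D8 depleted against D8.

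Of 19 receptor, kinase and transcription factor genes of the response 14 were called higher than ND in D6 (14.1% of all genes), 8 in D8 depleted (15.5%, and 2 were lower), 8 in D8 (2.33%), 14 in D10 repopulated (7.49%) and 15 in D10 (5.59%), with a median log2 of 1.18 in D10. Cebpd, a C/EBP factor of acute-phase genes, was higher by log2 3.66 in D6, 3.01 in D8 depleted, 3.31 in D8, 3.82 in D10 repopulated and 4.25 in D10 in the authors' deposited tables. Osmr, the oncostatin receptor gene, was higher by 3.00 and Nfkbia, the NF-kB inhibitor gene, by 1.81 in D10 in the authors' deposited table. In D8 depleted against D8 2 of the 19 were called, both lower: Il6st, the shared signalling chain of the interleukin-6 family, at log2 -0.45, and the kinase gene Jak1 at -0.37 in the authors' deposited table, while the NF-kB subunit gene Nfkb2 (-1.38) did not pass. The share of all genes called lower in that comparison was not taken, so this count cannot be read against it. Il6st was also lower in D10 repopulated against D10 (log2 -0.42, adjusted p = 0.000849) in the authors' deposited table, the only gene of the list called there.

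Other acute-phase plasma protein genes rose in part. Of 30 listed, 21 were tested in D10 against ND and 10 were called higher (5.59% of all genes), and in D8 against ND 8 of 22 (2.33%). The complement genes Cfb (log2 7.57) and C3 (5.73) and the metalloprotease inhibitor gene Timp1 (4.59) had the smallest p in D10 in the authors' deposited table. In D8 depleted against D8 0 of 21 were called, and the smallest p there belonged to C4b (log2 0.73), Hamp2 (1.43) and Hpx (0.68) in the authors' deposited table; 3 of the 30 were at 0 in both groups. Of the Serpina3 cluster, the neighbours of Serpina3n, 4 of 6 tested genes were called higher in D10 (5.59% of all genes), led by Serpina3f (log2 6.08), Serpina3m (5.89) and Serpina3i (4.98) in the authors' deposited table. Serpina3g was called higher in D8 depleted against D8 (log2 2.39), while Serpina3f (1.75) and Serpina3m (1.12) did not pass, in the authors' deposited table. Of the 100-base windows of the Serpina3n transcript 0.204% also occurred in Serpina3g or a pseudogene.

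The genes that move iron and copper are read against the shares of all genes called higher than ND, 14.1% in D6, 15.5% in D8 depleted, 2.33% in D8, 7.49% in D10 repopulated and 5.59% in D10. Of 25 tested iron genes 5 were called higher in D6, 6 in D8 depleted (1 lower), 0 in D8, 4 in D10 repopulated and 3 in D10, and their median log2 in D10 was 0.17. The 3 of smallest p in D10 were Ltf, the lactoferrin gene of neutrophil granules and secretions (log2 4.55), the metal transporter gene Slc39a8 (1.36) and the heme oxygenase gene Hmox1 (1.99), in the authors' deposited table. Ltf (1.95), the transferrin receptor 2 gene Tfr2 (0.78) and the ferritin heavy chain gene Fth1 (0.38) were called higher in D8 depleted against D8 in the authors' deposited table. Of 14 copper genes 5 were called higher in D10, led by the metalloreductase gene Steap4 (log2 6.63) and the metallothionein genes Mt2 (4.36) and Mt1 (3.32) in the authors' deposited table. The metallothionein gene Mt3 (0.77) and the copper chaperone gene Atox1 (0.41) were called higher in D8 depleted against D8 in the authors' deposited table, and Sod1 (0.24) did not pass. Ltf is also on the neutrophil list. Steap4 was also lower in D10 repopulated against D10 (log2 -0.95), as Cp was, in the authors' deposited table.

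Of 13 tested receptors and partners 4 were called higher in D10 against ND (5.59% of all genes), among them Tlr2 (log2 5.33) and the formyl peptide receptor genes Fpr1 (4.47) and Fpr2 (3.22), the last a receptor for serum amyloid A, in the authors' deposited table. Cd163, the scavenger receptor gene for haptoglobin and hemoglobin, was lower in D8 depleted than in ND (log2 -5.50) in the authors' deposited table, at a level of at most 0.0903 in all comparisons. In D8 depleted against D8 the receptor gene Ager was called higher (log2 1.58) and the chaperone gene Hspa5 lower (-0.56) in the authors' deposited table, and Cd163 (-5.69) did not pass.

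The retina label was checked with photoreceptor markers, of which 0 of 9 were at 0 in both groups of a comparison; Sag, the arrestin gene of photoreceptors, had a larger group mean between 1632 and 2106. The marker counts that follow are read against the shares of all genes called higher than ND. These were 14.1% in D6, 15.5% in D8 depleted, 2.33% in D8, 7.49% in D10 repopulated and 5.59% in D10. Liver markers were called higher than ND in 1 of 9 tested cases in D6, 3 of 10 in D8 depleted, 0 of 9 in D8, 1 of 9 in D10 repopulated and 0 of 8 in D10. Alb, the defining gene of liver, had a larger group mean of at most 0.0788 and was called in no comparison, and Apoa1 was called higher in D8 depleted against ND (log2 1.16) in the authors' deposited table. Gfap, the astrocyte filament gene that stressed Muller glia also make, was called higher in D10 against ND (1.96), Pax2 was not (0.26), and 1 of 6 astrocyte, 3 of 9 monocyte and macrophage, 0 of 7 pigment epithelium and 1 of 6 endothelial markers were called higher there in the authors' deposited table. Of 6 conjunctiva and cornea markers 0 were called higher than ND in D6, 5 in D8 depleted, 0 in D8, 3 in D10 repopulated and 2 in D10, with a median log2 of 3.18 in D8 depleted, 2.51 in D10 repopulated and 2.30 in D10. Lens markers, by contrast, were called lower than ND in D8 (7 of 9) and D8 depleted (9 of 9) and in 0 of 9 cases in D10, and neutrophil markers were called higher in 5 of 11 cases in D6, 4 in D8 depleted, 1 in D8, 6 in D10 repopulated and 4 in D10. The shares of all genes called lower than ND were not taken, so the lens counts cannot be read against them. The part of all these cell types in the members' values was not tested.

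Genes with the most similar pattern were ranked by the root mean square difference of log2 fold changes over the 8 comparisons, among 14619 genes. Nearest to Lcn2 were Orm1 (0.39), the complement gene Cfb (0.51) and the chemokine gene Cxcl5 (0.56). Among the 3 nearest to Saa3 were the chemokine genes Cxcl10 (0.95) and Ccl2 (1.12), and Orm2, which gets no value because its fitted folds are against groups listed at 0. Nearest to Serpina3n were Lbp (0.46), which encodes the plasma protein that binds bacterial lipopolysaccharide, Zbp1 (0.48) and Ifitm1 (0.56). Nearest to Cp were Dram1 (0.14), Fmo1 (0.14) and Alpk1 (0.22), and nearest to A2m were Plin4 (0.27), Gda (0.30) and Tuba1c (0.31). The difference is not scaled to the size of the folds or to their errors, so it is not compared between members. The comparisons share ND and diabetic samples, so the 8 values of a gene are not independent.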

How the data were processed

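Stranded poly(A) libraries of retina RNA were sequenced as paired 100-base reads, per the labels' protocols. The submitters' processing notes name GRCm39 and bcl2fastq, and for the aligner, counter, scaling and statistical method the sources used here give no name. What the authors deposited is 8 tables of 25655 genes, holding for each gene the log2 fold change, p-value, FDR-adjusted p and a signal level (the larger group mean), per the file headers. Depth per sample is unknown. Signs of the table of D10 over D10 repopulated were reversed here.

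The authors' adjusted p equals a Benjamini-Hochberg value over the genes that have one (15402 to 18102 genes) within 0.000489. Standard errors were taken as the log2 fold change over the normal quantile of p. A level was given to the group its fold change favours; all of 690 genes for D10, 423 for D8 and 1974 for D8 depleted whose level came from both tables, at a log2 fold change of at least 0.5, had equal values in them. The 7 contrasts between tables used a two-sided normal test with Benjamini-Hochberg adjustment over all genes, and the code was tested on simulated data. Members and lists were chosen with earlier results of these data known. Named genes are the 10 members, the 3 genes of smallest p of each pathway list in D10 against ND and in D8 depleted against D8, the first 2 of each marker list where its values touch a result, and the 3 nearest genes in pattern for 5 members; other names were chosen after their values were seen. Thresholds, a size floor, gene filters and the error model were varied. Python 3.11.15, numpy 2.4.6, pandas 2.3.3, scipy 1.17.1, matplotlib 3.10.9 and biopython 1.88 were used.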

Additional observations from a re-analysis of the deposited data

How the results depend on the processing

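With thresholds of 0.01 and 0.10, a floor of log2 1, the lowest 40 percent of levels left out or predicted names left out, the counts of called members against ND stayed within 1.5 times those reported. In D8 depleted against D8 the count of 1 became 2 at 0.10 and 0 when taken as the difference of the tables against ND. In D10 repopulated against D10 the count of 2 became 1 at 0.01, 1 with the floor of log2 1 and 0 as the difference of the tables; those differences carry larger errors by construction. Repopulation against depletion went to 1 called member at 0.10. With the estimated ND variance taken off, the counts became 10 for D10 repopulated against ND repopulated, 3 for D10 against D8, 2 for D8 against D6 and 1 for D10 against D6. No direction of a called member reversed in any of these settings. No paired analysis was possible because the deposited tables hold no value per sample and the labels give no shared replicate numbers, and leaving out samples was not possible for the same reason. Precision is limited for Orm1, Orm2, Saa1, Saa2, Saa3 and Hp, whose levels in ND were near 0.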
